A study of Mus musculus with 12 samples.

Results

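Lysosomes digest what macrophages take up, and 39 genes of that organelle were followed among the 24781 rows of a table of molecule counts from tumour-associated macrophages (TAMs). The 39 symbols were taken from a written list of acid hydrolases with their lumenal cofactors (16 genes), lysosomal membrane proteins (7 genes) and subunits of the proton pump, the vacuolar H+-ATPase or V-ATPase (16 genes), with the cathepsins left out. All 39 symbols had a row. The list set no threshold on a measured value. It was chosen with earlier results of these data known, so the counts and shares of members below are descriptive.

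The macrophages came from MC38 tumours, grown from a mouse colon adenocarcinoma line, in wild-type (WT) mice that received either picrotoxin, which blocks ionotropic GABA receptors, or its solvent DMSO. On day 7 of tumour growth, CD45+CD11b+F4/80high cells were sorted, and each of the 12 libraries (6 per treatment) was made from 100 cells. The sample titles only number the replicates within each treatment. The paper's methods and its figure text differ on whether every library had its own mouse, so p-values here measure the spread between libraries, part of which may be technical. The shared features of both groups are the WT host, the tumour line, the day and the sort, and treatment is the only labelled difference. The mice were young adults of both sexes, with age and sex stated for the study as a whole and not for each treatment group.

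Acid hydrolases are made in the endoplasmic reticulum, most of them are tagged with mannose 6-phosphate in the Golgi apparatus, and they work at the low pH of the lysosomal lumen. That pH is kept by the V-ATPase, in which a cytosolic V1 sector burns ATP and turns a ring of proteolipids in the membrane-bound V0 sector, so that protons move inwards. Many lysosomal genes carry in their promoters an E-box-like element, TCACGTG, to which the MiT/TFE transcription factors (TFEB, TFE3 and MITF among them) bind, and macrophages as professional phagocytes are rich in lysosomes.

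The promoter sequences are shown because they are what several of these genes share beyond their place in the cell. A promoter, the 250 bases before and 50 after the start site that RefSeq annotates on GRCm38.p6 (the assembly also named mm10), was at hand for 32 of the 39 genes. The motif TCACGTG, read on either strand, so that it may appear as CACGTGA, lay in 9 of these 32 (28.1%). It lay in 7.76% of the 7578 promoters of genes tested in these macrophages and in 4.29% of all 27025 promoters. The palindrome TCACGTGA, where the motif and its reverse complement overlap by all but their outer bases, lay in 5 of 32 (15.6%), against 2.49% and 1.12%. The core CACGTG alone lay in the same count of 9 of 32 members, against 12.5% of tested and 8.09% of all promoters. A match is a description of letters and not evidence of binding. The windows below run 5′ to 3′ along the gene's own strand, with the motif in capitals. They come from Gaa at chr11:119267802-119267848 (plus strand), Gla at chrX:134601173-134601253 (minus), Glb1 at chr9:114401009-114401055 (plus), Lamp1 at chr8:13159079-13159160 (plus), Mcoln1 at chr8:3500427-3500500 (plus), Atp6v0b at chr4:117887330-117887386 (minus), Atp6v0d1 at chr8:105566050-105566079 (minus), Atp6v0e at chr17:26676387-26676416 (plus) and Atp6v1a at chr16:44139364-44139411 (minus).
Gaa: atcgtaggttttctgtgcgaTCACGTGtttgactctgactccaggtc
Gla: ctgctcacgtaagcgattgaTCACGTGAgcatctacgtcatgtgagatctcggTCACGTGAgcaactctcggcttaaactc
Glb1: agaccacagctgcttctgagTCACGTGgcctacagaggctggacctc
Lamp1: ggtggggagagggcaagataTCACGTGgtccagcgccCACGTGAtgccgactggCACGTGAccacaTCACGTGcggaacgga
Mcoln1: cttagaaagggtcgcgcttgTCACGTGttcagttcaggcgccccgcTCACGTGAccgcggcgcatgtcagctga
Atp6v0b: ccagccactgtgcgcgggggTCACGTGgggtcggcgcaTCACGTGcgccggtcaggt
Atp6v0d1: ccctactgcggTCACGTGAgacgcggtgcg
Atp6v0e: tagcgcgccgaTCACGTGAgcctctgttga
Atp6v1a: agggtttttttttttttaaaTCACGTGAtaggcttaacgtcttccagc

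The hydrolases held the motif in 3 of 12 promoters, the membrane proteins in 2 of 6 and the V-ATPase subunits in 4 of 11, whereas the promoters of the lumenal cofactors (3 genes) had no match. Lamp1 stood out by number, with 4 matches that all lay between 62 and 10 bases upstream of its start site. Gla, Mcoln1 and Atp6v0b had 2 matches each. In Atp6v0d1 the palindrome spanned the start site, from base -4 to base 3 with the start counted as 0. Members without a promoter entry were Npc1, Asah1, Atp6v0d2, Atp6v1b2, Atp6v1c1, Atp6v1g1 and Atp6v1h.

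**Figure D1:**
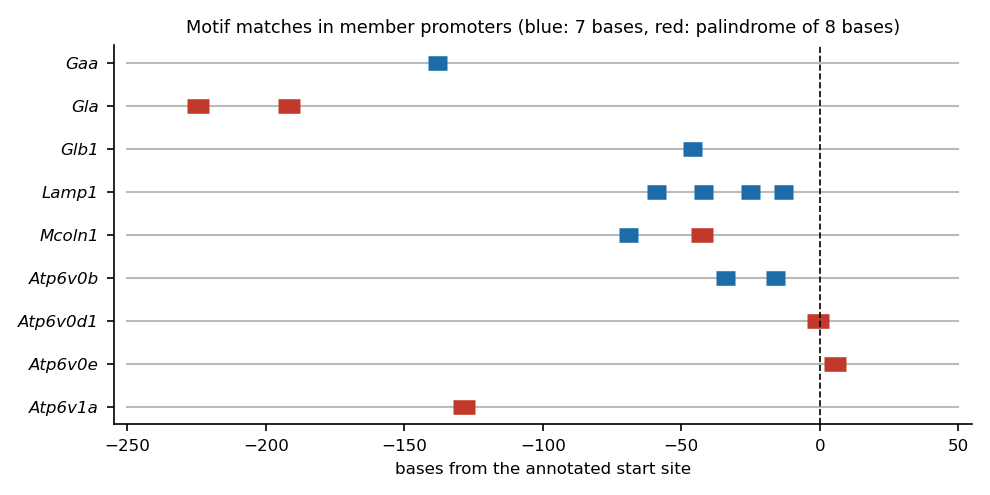
Motif matches along the 9 member promoters that held any, in bases from the annotated start site (dashed line, counted as 0). Blue marks are the motif of 7 bases and red marks the palindrome of 8 bases, and the 4 matches of Lamp1 sit close together between -62 and -10.

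To ask whether ionotropic GABA receptor blockade in the host altered the lysosomal transcripts of TAMs, the 39 genes were compared between the treatments. Library totals lay between 201697 and 309617 molecules. The genes of the macrophage marker list, the receptor Csf1r and the complement genes C1qa, C1qb and C1qc among them, were all detected (10 of 10) and made up 0.968% ± 0.134 of the DMSO and 1.02% ± 0.0485 of the picrotoxin molecules (SD, n = 6). The neutrophil, dendritic cell, T and NK cell, B cell and osteoclast lists each summed to at most 7 molecules in a library, with Flt3, Cd3e, Ly6g, Calcr and Oscar at 0 in all 12. A list of epithelial genes that MC38 cells could add held 8 to 21 molecules, with Epcam, Krt18 and Krt19 at 0, and its share was 0.00426% ± 0.00112 in DMSO and 0.00678% ± 0.00256 in picrotoxin libraries. At an unadjusted p under 0.05, the 1 epithelial gene tested and 2 of 10 macrophage genes were higher in picrotoxin, and the part of these differences in the lysosomal results was not tested. The fibroblast and matrix list (12 of 12 genes detected) held 19 to 845 molecules in DMSO and 9 to 71 in picrotoxin libraries, with the 2 largest sums in DMSO 5 (845) and DMSO 3 (254), and 9 of its 10 tested genes were lower in picrotoxin at an unadjusted p under 0.05. In a bulk sample, fewer cells of a type and less RNA per cell cannot be told apart.

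Nearly all lysosomal transcripts had levels that overlapped between the treatments, and the 4 with the smallest p-values were all higher in picrotoxin libraries: the mannosidases Man2b1 (1.29-fold) and Manba (3.06-fold), the cholesterol transporter Npc1 (1.41-fold) and the membrane glycoprotein Lamp1 (1.17-fold). None of the 38 members tested passed an adjusted p of 0.05 in the quasi-likelihood test of edgeR with Benjamini-Hochberg adjustment over 9580 genes, of which 0.0522% passed; the smallest adjusted p of a member was 0.351. At an unadjusted p under 0.05 the same fit gave 4 members higher (10.5% of 38), where the share of all genes was 3.65%, and 0 members lower, where it was 4.11%. DESeq2 gave the same 4 members higher, against 1.77% of genes, and 0 lower, and 0 members passed its adjusted p. Log2 fold changes, picrotoxin over DMSO, were above 0 for 27 of 38 members (71.1%), with a median of 0.08, where 49.2% of all genes were above 0 with a median of -0.01. Genes with more molecules gave a larger share above 0. Of the 3741 genes with a mean of 10 or more normalised molecules, 53.8% were above 0 (median 0.02) and 6.71% were higher at an unadjusted p under 0.05, where the 32 members in that range gave 71.9% above 0 (median 0.07) and 9.38% higher. Normalised molecules are counts divided by the library's size factor.

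**Figure D2:**
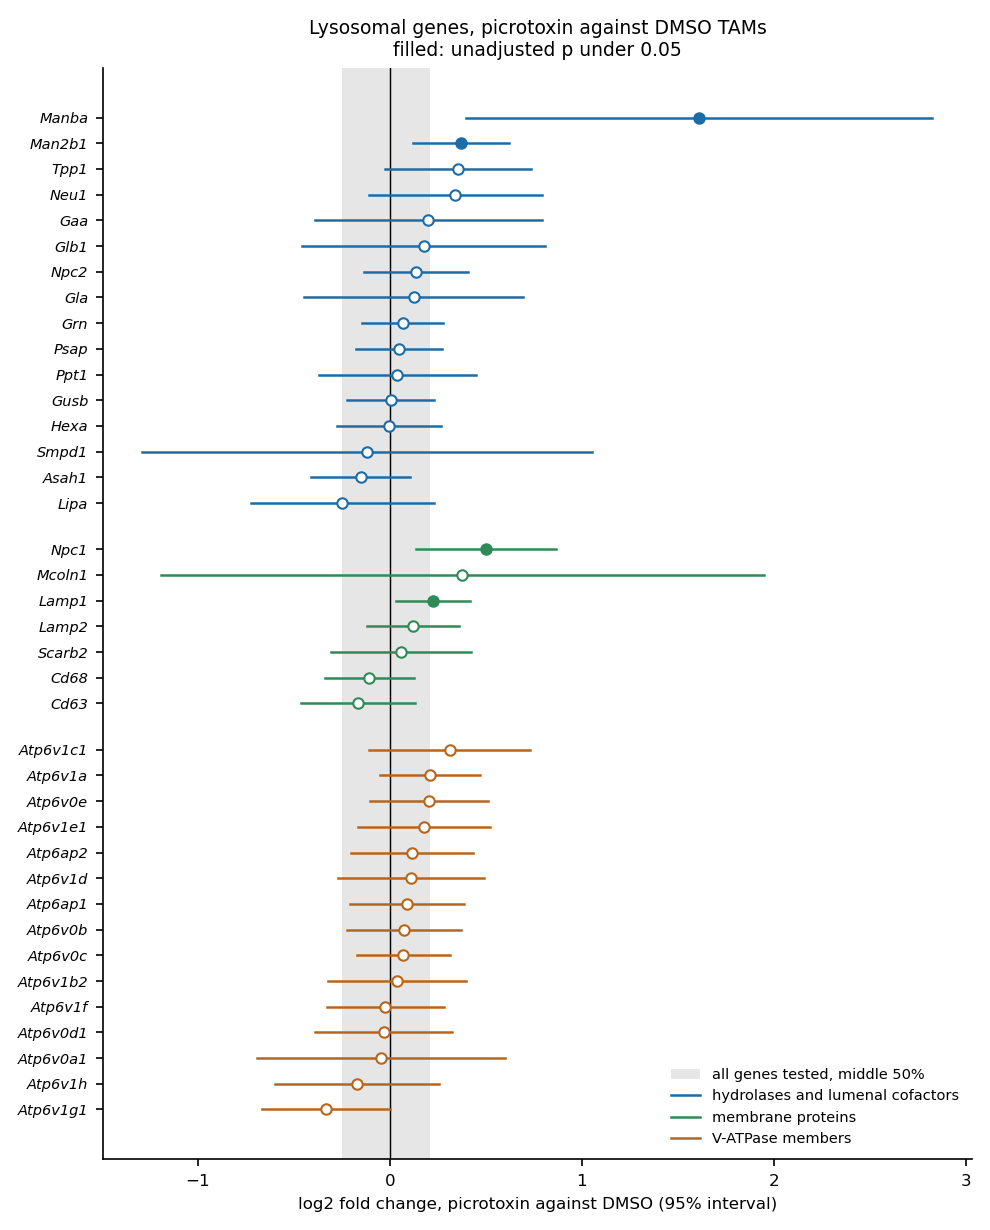
Log2 fold change of picrotoxin against DMSO libraries (n = 6 each) for the 38 members tested, with 95% intervals, by class. Filled points have an unadjusted p under 0.05 (Man2b1, Manba, Npc1 and Lamp1), and the grey band is the middle 50% of all 9580 genes, in which most members lie.

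Among the hydrolases the alpha-mannosidase Man2b1, which trims mannose from glycoproteins during their breakdown, had the smallest p. It lies on GRCm38 at chr8:85083270-85098282 (plus strand) with no other annotated gene over it. Its normalised molecules ran from 48.1 to 69.6 in DMSO (median 60.9) and from 65.6 to 89.4 in picrotoxin (median 78.2). All 6 picrotoxin libraries were above the DMSO mean and 4 were above every DMSO library, while picrotoxin 2 and picrotoxin 5 lay within the DMSO range. The means were 59.6 ± 7.33 and 76.8 ± 8.82 (SD, n = 6), a log2 fold change of 0.37 (SE 0.12, edgeR adjusted p = 0.351). An unadjusted p under 0.05 was kept in all 24 alternative fits.

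The beta-mannosidase Manba, which removes the last mannose of the N-glycan core (chr3:135485611-135571404, plus strand), was sparse, with 7 molecules in all DMSO libraries together and 20 in all picrotoxin libraries. Normalised molecules were 0.732 to 1.64 in DMSO (median 1.01) and 0 to 5.75 in picrotoxin (median 4.15). Of the picrotoxin libraries, 5 exceeded every DMSO library and picrotoxin 3 had no molecule, so the groups overlapped. The log2 fold change of 1.61 (SE 0.60, edgeR adjusted p = 0.448) therefore rests on counts of a few molecules, and its unadjusted p was over 0.05 in limma-voom. Manba also overlaps Gm16100 on its own strand and Oaz2-ps on the other.

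Tpp1 encodes tripeptidyl peptidase, which cuts tripeptides from protein ends and is lost in a childhood form of neuronal ceroid lipofuscinosis. It had 15.6 to 25.8 normalised molecules in DMSO (median 20.5) and 14.7 to 32.9 in picrotoxin (median 28.1). A single library set the overlap: 5 of 6 picrotoxin libraries lay above all DMSO libraries, between 27.1 and 32.9, and picrotoxin 3 lay below them all at 14.7. The log2 fold change was 0.35 (SE 0.19, edgeR adjusted p = 0.696), and without picrotoxin 3 it was 0.48 with an unadjusted p under 0.05. Neu1, the lysosomal sialidase, had 9.22 to 14.9 normalised molecules in DMSO (median 12.1) and 9.46 to 20.4 in picrotoxin (median 15.4). In Neu1, 3 picrotoxin libraries exceeded the DMSO range, and the log2 fold change was 0.34 (SE 0.22, edgeR adjusted p = 0.759).

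The other 9 hydrolases had log2 fold changes between -0.25 (Lipa, the acid lipase that frees cholesterol from its esters) and 0.20 (Gaa, the acid alpha-glucosidase that breaks down glycogen), and none had an unadjusted p under 0.05. Gusb, the beta-glucuronidase, was the most even of them, from 63.6 to 74.8 normalised molecules over the 12 libraries, and its log2 fold change of 0.005 had a 95% interval from -0.22 to 0.23. Hexa, the alpha subunit of beta-hexosaminidase, had a log2 fold change of -0.0038 (interval -0.28 to 0.27). Asah1, the acid ceramidase, was below the DMSO mean in all 6 picrotoxin libraries and below every DMSO library in 4, yet the ranges met, at 47.4 to 58.6 in DMSO and 40.3 to 50.2 in picrotoxin, and the log2 fold change was -0.15 (SE 0.13, edgeR adjusted p = 0.841). Ppt1, the thioesterase that removes palmitate from proteins, varied widely between libraries, with a coefficient of variation of 44.3% in DMSO, where DMSO 1 and DMSO 2 held 87.4 and 91.4 normalised molecules and the other libraries 29.5 to 52.0. Glb1 and Gla, which cut beta- and alpha-linked galactose, and the acid sphingomyelinase Smpd1 had 83, 138 and 27 molecules over the whole series, so their intervals were wide (for Smpd1 from -1.29 to 1.06). Glb1 overlaps Tmppe on its own strand, and the row for Tmppe held 46 molecules in DMSO and 32 in picrotoxin libraries. Ppt1 overlaps Cap1 on the opposite strand, and the row for Cap1 held 580 and 530.

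The lumenal cofactors had more molecules, and none had an unadjusted p under 0.05. Psap, the precursor of the saposins that present sphingolipids to their hydrolases, had 378 to 603 normalised molecules in DMSO (median 436) and 397 to 539 in picrotoxin (median 507). Its log2 fold change was 0.05 (SE 0.11, edgeR adjusted p = 0.957), and the sign turned when DMSO 4 was left out (-0.02). Psap had a variance 13.5 times its mean within groups, the largest of 32 members. The median was 1.41 for these members and 1.21 for the 3741 genes with a mean of 10 or more. Psap also had the largest mean of the 32 members. Its coefficient of variation, 20.5% in DMSO and 12.2% in picrotoxin, lay within the range of the other members (Ppt1 had 44.3% and 22.1%). The 4 libraries numbered 1 or 2 were the 4 highest, from 536 to 603, and those numbered 3 to 6 lay between 378 and 508. Whether those numbers mark a shared day or preparation is not stated in the labels. Npc2, the lumenal carrier that hands cholesterol to NPC1, had 126 to 229 normalised molecules in DMSO (median 162) and 126 to 214 in picrotoxin (median 190), a log2 fold change of 0.14 (SE 0.13, edgeR adjusted p = 0.87). Grn, the progranulin precursor, had 176 to 263 in DMSO (median 231) and 198 to 262 in picrotoxin (median 236), and its log2 fold change was 0.07 (SE 0.10, edgeR adjusted p = 0.934). The DMSO range enclosed the picrotoxin range in each of these cofactors.

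Of the membrane proteins, Npc1, which moves cholesterol from the lumen into the limiting membrane, was the only member whose groups did not overlap (1 of 39, against 0.386% of the genes tested). Its normalised molecules were 21.9, 20.9, 19.5, 18.6, 21.3 and 22.0 in DMSO 1 to 6. They were 24.0, 22.3, 22.1, 42.1, 33.4 and 31.1 in picrotoxin 1 to 6. The gap between the groups was narrow, 22.0 against 22.1, and the difference came mainly from picrotoxin 4, 5 and 6. The means were 20.7 ± 1.37 and 29.2 ± 7.92 (SD, n = 6), a log2 fold change of 0.50 (SE 0.18, edgeR adjusted p = 0.41). Without picrotoxin 4 it was 0.36 and its unadjusted p was no longer under 0.05. Npc1 overlaps Rmc1 on the opposite strand and shares 323 bases with it, and whether the counting used strand is not given in the sources used here; the row for Rmc1, under its older name 3110002H16Rik, held 24 molecules in DMSO and 22 in picrotoxin libraries, where Npc1 held 137 and 168.

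Lamp1, a heavily glycosylated protein that lines the lysosomal membrane and serves as its usual marker, had 162 to 216 normalised molecules in DMSO (median 196) and 207 to 242 in picrotoxin (median 221). Its gene lies at chr8:13159161-13175338 (plus strand). All 6 picrotoxin libraries exceeded the DMSO mean and 4 exceeded every DMSO library, and the groups overlapped through DMSO 4 and DMSO 5. The means were 192 ± 20.3 and 223 ± 13.9 (SD, n = 6), a log2 fold change of 0.23 (SE 0.09, edgeR adjusted p = 0.545). Its unadjusted p was no longer under 0.05 without DMSO 2, without picrotoxin 6, with library totals alone and in replicates 3 to 6 alone. The log2 fold changes in these fits were, in that order, 0.19, 0.20, 0.17 and 0.19. Grtp1, which overlaps Lamp1 on the opposite strand, held 2 molecules in the whole series. The close relative Lamp2, which is needed for chaperone-mediated autophagy, had 80.9 to 105 normalised molecules in DMSO (median 90.4) and 86.3 to 122 in picrotoxin (median 97.9), a log2 fold change of 0.12 (SE 0.12, edgeR adjusted p = 0.87).

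Cd68 and Cd63 had fold changes on the other side of 0. Cd68, the macrophage scavenger-type protein macrosialin, ranged from 95.2 to 132 normalised molecules in DMSO (median 122) and from 87.3 to 125 in picrotoxin (median 111), and its log2 fold change of -0.11 had an interval from -0.34 to 0.13. Cd63, a tetraspanin of late endosomes that many other cells also express, ranged from 43.2 to 80.2 in DMSO (median 54.0) and from 40.7 to 61.0 in picrotoxin (median 48.5), with a log2 fold change of -0.17 (SE 0.15, edgeR adjusted p = 0.851). Its highest value was in DMSO 5, the library with the most molecules of the fibroblast and matrix list. Leaving out DMSO 3 and DMSO 5, an alternative added once the data had been seen, gave a log2 fold change of 0.0033. Whether the matrix molecules of these libraries had a part in the Cd63 values was not tested. Cd63 shares 858 bases at 98.0% identity with the pseudogene Cd63-ps, so its reads may be split. Scarb2, the receptor LIMP-2 that carries glucocerebrosidase to lysosomes, had a log2 fold change of 0.06 (interval -0.31 to 0.42). Mcoln1, the calcium channel TRPML1, was near the limit of counting, with 6 molecules in DMSO and 7 in picrotoxin libraries and a log2 fold change of 0.38 whose interval ran from -1.19 to 1.95. Its promoter, with 2 motif matches, is among those printed above.

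**Figure D3:**
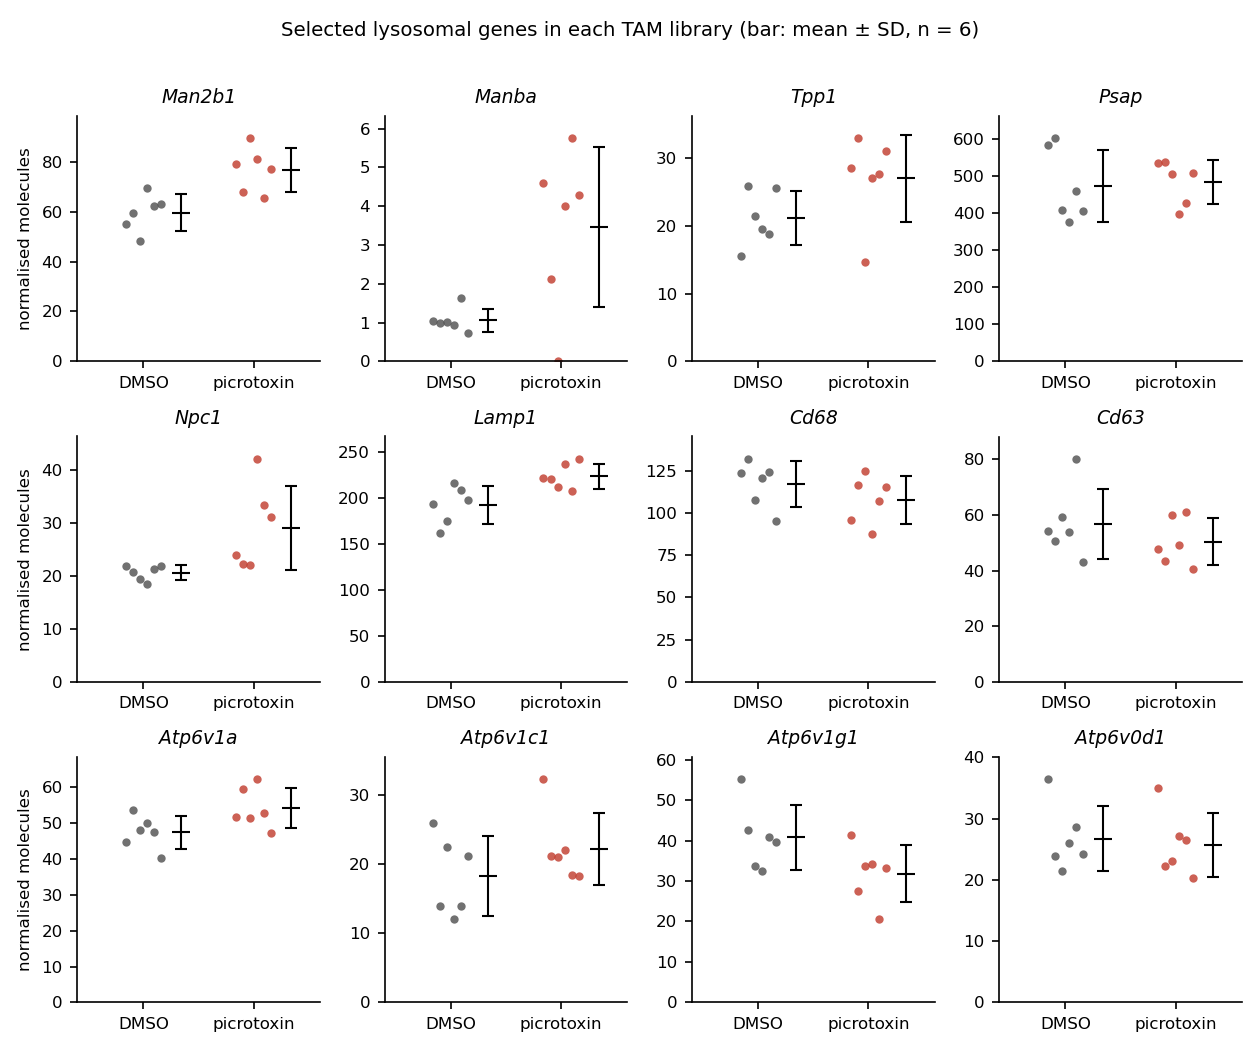
Normalised molecules of 12 members in each library, DMSO (grey) and picrotoxin (red), with the mean and SD of 6 libraries beside the points, each axis starting at 0. The groups are apart for Npc1, by a gap from 22.0 to 22.1, and overlap for the other 11 genes.

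The proton pump had no member past the test. Of its 16 members 15 were tested, 10 had a log2 fold change above 0, 0 had an unadjusted p under 0.05, and the median was 0.07. In the V0 sector the log2 fold changes ran from -0.04 (Atp6v0a1, the membrane-spanning a subunit) to 0.20 (Atp6v0e, a small membrane subunit). Atp6v0e had 33.8 to 54.1 normalised molecules in DMSO (median 40.0) and 36.8 to 62.2 in picrotoxin (median 48.6) (edgeR adjusted p = 0.813). Picrotoxin 6 was its highest library and the only one above the DMSO range. The proteolipids of the rotating ring, Atp6v0b and Atp6v0c, had log2 fold changes of 0.07 (interval -0.22 to 0.37) and 0.07 (interval -0.17 to 0.31). Atp6v0c is uncertain, because the processed copy Atp6v0c-ps2 had a row of its own with 1556 molecules, more than the 1323 of Atp6v0c itself.

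The d subunit joins the ring to the V1 sector and has the isoforms Atp6v0d1, found in most cells, and Atp6v0d2, known from osteoclasts and some macrophages. Atp6v0d1 had 21.5 to 36.4 normalised molecules in DMSO (median 25.1) and 20.4 to 35.0 in picrotoxin (median 24.8), a log2 fold change of -0.03 (SE 0.17, edgeR adjusted p = 0.986). The highest library of each group was number 1, and without DMSO 1 the log2 fold change was 0.06. Atp6v0d2 had 1 molecule each in DMSO 2 and DMSO 6 and 3 in picrotoxin 4, and 0 in the other 9 libraries, so it fell below the minimum for testing. The log2 ratio of Atp6v0d2 to Atp6v0d1 counts, each with 1 added, was -4.57 ± 0.617 in DMSO and -4.33 ± 0.819 in picrotoxin (SD, n = 6; exact two-sided permutation test over 924 assignments, p = 0.613, smallest possible 0.00216). In the 9 libraries without an Atp6v0d2 molecule, this ratio reflected only the Atp6v0d1 count and the added 1. The test could therefore not decide whether isoform use changed, and a change in the ratio was not detectable at this depth.

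In the V1 sector Atp6v1a, the catalytic A subunit, had 40.3 to 53.6 normalised molecules in DMSO (median 47.8) and 47.2 to 62.2 in picrotoxin (median 52.3). Its log2 fold change was 0.21 (SE 0.13, edgeR adjusted p = 0.756). The DMSO mean was exceeded by 5 of 6 picrotoxin libraries and the whole DMSO range by 2. Atp6v1c1, the C subunit that helps to couple the sectors, had 12.1 to 26.0 in DMSO (median 17.6) and 18.2 to 32.3 in picrotoxin (median 21.1), with a log2 fold change of 0.31 (SE 0.21, edgeR adjusted p = 0.768). Only picrotoxin 1 exceeded the DMSO range. Atp6v1g1, a G subunit of the peripheral stalk, had 32.5 to 55.1 in DMSO (median 40.2) and 20.7 to 41.5 in picrotoxin (median 33.4). It was below the DMSO mean in 5 of 6 picrotoxin libraries and below every DMSO library in 2, picrotoxin 2 and picrotoxin 5. The log2 fold change was -0.33 (SE 0.16, edgeR adjusted p = 0.651), and the unadjusted p was under 0.05 in 12 of 24 alternative fits. Atp6v1g1 shares 357 bases at 99.4% identity with the gene model Gm13453, so that reads may be shared. The other 5 subunits of the sector, which form the catalytic head with Atp6v1a (Atp6v1b2), the central shaft (Atp6v1d, Atp6v1f) and the stalks (Atp6v1e1, Atp6v1h), had log2 fold changes from -0.17 to 0.18. The accessory proteins Atp6ap1 and Atp6ap2, which take part in assembly and targeting of the pump, had 0.09 and 0.12.

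Summed over genes, the classes took shares of the library that differed by less than the spread between libraries. Hydrolases and lumenal cofactors made up 0.541% ± 0.0818 of the DMSO and 0.550% ± 0.0426 of the picrotoxin molecules (SD, n = 6). Membrane proteins held 0.219% ± 0.0151 and 0.226% ± 0.00856, and the V-ATPase 0.234% ± 0.0225 and 0.236% ± 0.0153. The ranges overlapped in every class, and DMSO 3 was the lowest DMSO library in each. That library also had the lowest share of the macrophage list (0.768%), a high share of the ribosomal RNA row Rn45s (13.7%, where DMSO libraries averaged 10.1% ± 2.42 and picrotoxin libraries 12.95% ± 1.32), and the part of these in its low lysosomal share was not tested. The 4 members higher at an unadjusted p under 0.05 were the same 4 without DMSO 3 and DMSO 5 and with the fibroblast and matrix score as a covariate. With that covariate the median log2 fold changes were 0.0377 for hydrolases and cofactors, 0.0118 for membrane proteins and 0.0142 for the V-ATPase. The main fit gave 0.0956, 0.1214 and 0.0746. The part of the matrix difference in these medians was not tested.

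**Figure D4:**
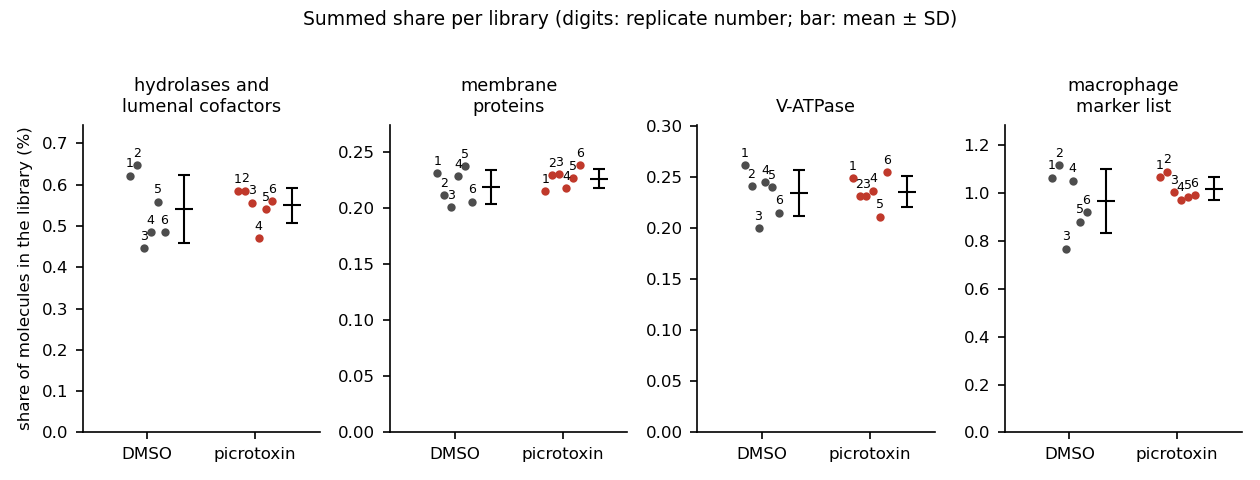
Share of each library's molecules, in percent, summed over the genes of each class and over the macrophage marker list, with replicate numbers at the points and the mean and SD of 6 libraries beside them. The groups overlap in all 4 panels, and DMSO 3 is the lowest DMSO library in each.

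Members with a promoter match to TCACGTG were above 0 in 8 of 9 cases, with a median log2 fold change of 0.20, and 1 of the 9, Lamp1, had an unadjusted p under 0.05. Members with a promoter and no match were above 0 in 16 of 23 cases with a median of 0.07, and 2, Man2b1 and Manba, had an unadjusted p under 0.05. Of all genes tested, 49.2% were above 0 and 3.65% were higher at an unadjusted p under 0.05 in edgeR. Genes with a mean of 10 or more normalised molecules gave 53.8% and 6.71%. Members without a promoter entry, Npc1 among them, are in neither set. The difference between the members with and without a match was not tested.

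Other genes of the organelle were read from written lists of 112 genes, of which 100 were tested. Of these 7 were higher (7.0%, against 3.65% of all genes) and 2 lower (against 4.11%) at an unadjusted p under 0.05 in edgeR. Genes with a mean of 10 or more normalised molecules gave 6.71% higher in the same fit, and the 100 genes were not split at that mean. DESeq2 gave 4 higher, where the share of all genes was 1.77%, and 1 lower. In both fits 0 passed the adjusted p, and in edgeR 63 were above 0 with a median log2 fold change of 0.11. Of all genes 49.2% were above 0, and of those with a mean of 10 or more 53.8%. The list of other hydrolases and activators had 24 of 24 tested and a median of 0.12. At an unadjusted p under 0.05 in edgeR, 1 gene was higher (4.17%, close to the 3.65% of all genes) and 0 lower.

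In the list of other membrane proteins and transporters, 23 of 24 were tested and the median was 0.07. At an unadjusted p under 0.05 in edgeR, 1 gene was higher (4.35%, against 3.65% of all genes) and 2 lower (against 4.11%). Laptm5, a lysosomal protein of blood cells, had 165 to 234 normalised molecules in DMSO (median 197) and 201.9 to 253 in picrotoxin (median 238). All 6 picrotoxin libraries lay above the DMSO mean, at a log2 fold change of 0.24 (SE 0.10, edgeR adjusted p = 0.545). Its relative Laptm4b had a log2 fold change of -1.60 (SE 0.67, edgeR adjusted p = 0.545) at no more than 10.2 normalised molecules in any library. Ostm1, the partner of the lysosomal chloride transporter CLC-7, had 8.35 to 16.4 in DMSO (median 12.7) and 2.14 to 13.8 in picrotoxin (median 7.17), a log2 fold change of -0.69 (SE 0.30, edgeR adjusted p = 0.574). With the fibroblast and matrix score as a covariate the log2 fold changes of Laptm4b, Ostm1 and Laptm5 were -0.96, -0.48 and 0.18, without DMSO 3 and DMSO 5 they were -1.09, -0.485 and 0.17, and none then had an unadjusted p under 0.05. The list of other V-ATPase subunits and assembly factors had 7 of 14 tested with a median of 0.19. Dmxl2, a rabconnectin that helps the sectors assemble, was the 1 gene higher at an unadjusted p under 0.05, with 0.68 (SE 0.32, edgeR adjusted p = 0.621). That is 14.3% of the 7 tested, against 3.65% of all genes, and 0 were lower. Dmxl2 kept an unadjusted p under 0.05 in 13 of 23 alternative fits and in 7 of 12 with a single library left out. DESeq2 gave 0 higher in that list.

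The genes that sense and set lysosomal capacity gave a median log2 fold change of 0.21 over 22 of 24 tested. At an unadjusted p under 0.05 in edgeR, 3 were higher (13.6%, against 3.65% of all genes) and 0 lower (against 4.11%). Tsc1, whose product restrains mTORC1, had 0.818 to 5.57 normalised molecules in DMSO (median 2.59) and 4.21 to 10.03 in picrotoxin (median 5.91), a log2 fold change of 1.21 (SE 0.41, edgeR adjusted p = 0.398). Tfe3, a MiT/TFE factor, had 6.54 to 15.6 in DMSO (median 10.99) and 10.6 to 23.0 in picrotoxin (median 16.5), a log2 fold change of 0.59 (SE 0.25, edgeR adjusted p = 0.545). Rragc, a GTPase that holds mTORC1 at the lysosome, had 0.43 (SE 0.18, edgeR adjusted p = 0.548). The groups overlapped for all 3, and DESeq2 gave 1 gene of the list higher, Tsc1, where the share of all genes was 1.77%. The unadjusted p of Tfe3 was under 0.05 in 17 of 24 alternative fits and in 8 of 12 with a single library left out. It was over 0.05 with the fibroblast and matrix score as a covariate and without DMSO 3 and DMSO 5 (log2 fold change 0.50 in both). The unadjusted p of Rragc was over 0.05 without DMSO 2, DMSO 6 or picrotoxin 6. In the list of delivery and fusion genes, 24 of 26 were tested and the median was 0.04. At that p, 1 was higher (4.17%, close to the 3.65% of all genes) and 0 lower (against 4.11%). M6pr, the cation-dependent mannose 6-phosphate receptor, had 56.3 to 78.5 normalised molecules in DMSO (median 71.3) and 60.0 to 109 in picrotoxin (median 85.6), and its log2 fold change was 0.34 (SE 0.13, edgeR adjusted p = 0.495). Its unadjusted p was over 0.05 without picrotoxin 1, without picrotoxin 2 and in replicates 3 to 6 alone.

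**Figure D5:**
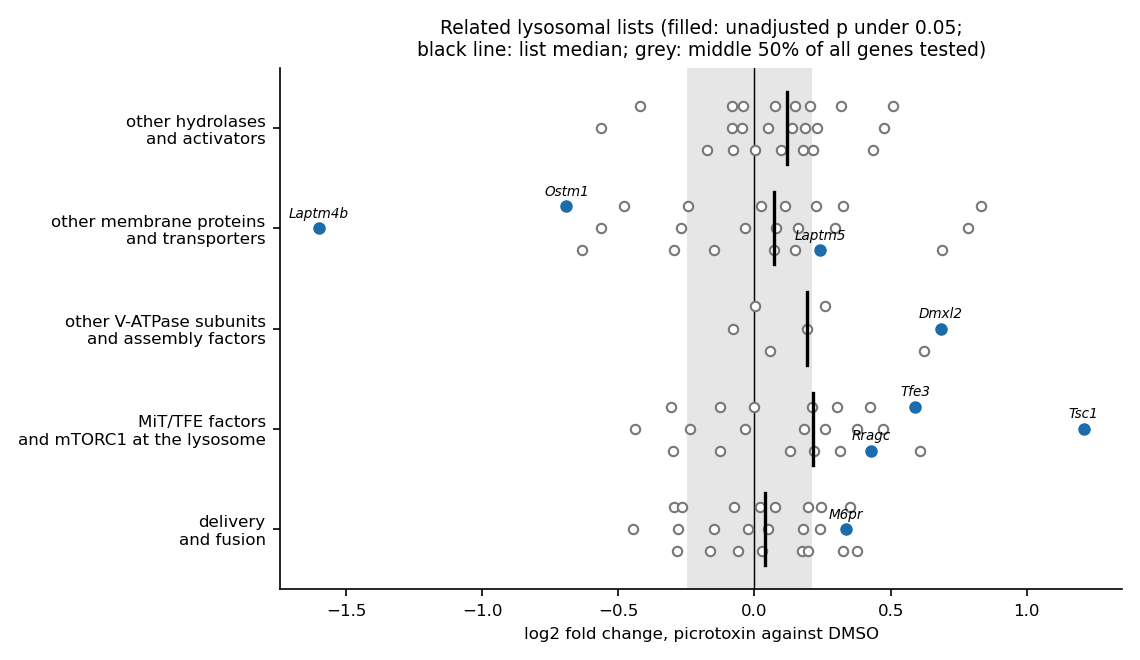
Log2 fold change, picrotoxin against DMSO, of tested genes of 5 related lists. Filled and named points have an unadjusted p under 0.05 (6 higher, 2 lower), black lines are list medians between 0.04 and 0.21, and the grey band is the middle 50% of all genes tested.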

How the data were processed

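RNA of 12 libraries was counted by the authors after reverse transcription with a molecular barcode. The deposited values are whole-number molecule counts, with gene symbols as row names, from reads mapped with STAR to mm10 per the submitters' processing notes, and how strand and multiply mapped reads were handled is not given in the sources used here. Groups came from the labels, and 0 sample columns were unused. Library totals were 201697 to 309617, and a count of 0 allowed up to 3 molecules. Genes with a mean above 1 normalised molecule (9580) were tested with edgeR 4.0.16 (TMM, quasi-likelihood, two-sided, Benjamini-Hochberg over all genes, R 4.3.3), checked on simulated data. DESeq2 1.42.0 size factors gave normalised molecules. Alternatives were the DESeq2 Wald test, limma-voom (limma 3.58.1), other scalings and filters, a replicate block, covariates and libraries left out. The members and lists were chosen with earlier results of these data known.

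Values are given for the members with the 4 smallest p-values in each class and for Lamp1, Cd68, Psap, Grn, Npc2, Atp6v0d1, Atp6v0d2 and Mcoln1, and, of each related list, for up to 4 genes with an unadjusted p under 0.05. Other single values follow from counts. Results of 2 genes of the related and marker lists are not reported here, although both genes stay in the counts, fits and list medians, and 1 of them is left out of the plot of the related lists. Positions and overlaps are from GENCODE release 21 for mouse, promoters from RefSeq. Near-identical segments (at least 200 bases at 97% identity) were sought with blastn 2.17.0 among annotated transcripts. Gene names of overlapping genes were matched through RefSeq synonyms. Within groups, all 30 library pairs differed by more than sampling noise (chi-square per degree of freedom 1.23 to 3.15). The spike-in RNAs had 0 rows in the table.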

Additional observations from a re-analysis of the deposited data

Results flagged for a closer look

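In 66 checks of the named genes in groups of 6 libraries, 7 libraries stood far from the other 5 of their group. The nominal rate of the check gives 3.3. That rate does not hold for genes with counts of a few molecules, so no excess over chance is read from these numbers. Tpp1 had 14.7 normalised molecules in picrotoxin 3, and the next lowest picrotoxin library had 27.1. Atp6v1c1 had 32.3 in picrotoxin 1, and the next highest had 22.1. Rragc had 35.4 in picrotoxin 6, and the next highest had 24.4. The others are sparse genes whose values stand for 1 to 3 molecules: Manba in DMSO 5 (1.64), Mcoln1 in DMSO 3 (3.07) and in picrotoxin 2 (2.12), and Atp6v0d2 in picrotoxin 4 (3.01, with 0 in the other 5). Each of the 7 values came from a different library.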

How the results depend on the processing

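The count of members with an adjusted p under 0.05 was 0 in the 24 alternative fits, in which the smallest adjusted p was 0.199 (Npc1, replicates 3 to 6 alone), and the count of members higher at an unadjusted p under 0.05 stayed between 3 and 5. The count of members lower moved from 0 to 1, Atp6v1g1, with median-of-ratios size factors, with library totals alone, with every gene kept, with a mean above 10, with a term for numbers 1 and 2 against 3 to 6, without Rn45s, with the matrix score as a covariate and without DMSO 3 and 5 (chosen after seeing the data), and it was 0 to 1 with single libraries left out. The cause was not tested. Same-numbered libraries correlated between -0.00492 and 0.126 in their deviations from the group means, so they were not taken as pairs; with a replicate block 4 members were higher and 1 lower, and 43 genes of all tested passed the adjusted p, where the fit without it gave 5.

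The median log2 fold change of membrane proteins was 0.01 (0.0118) with the matrix score as a covariate and 0.03 (0.0348) without DMSO 3 and 5, and it was 0.0874 to 0.1676 with single libraries left out. With single libraries left out, that of hydrolases and cofactors was 0.0112 to 0.1503 and that of the V-ATPase 0.0278 to 0.1315, and without DMSO 3 and 5 they were 0.0302 and 0.0111. The Atp6v0d2 to Atp6v0d1 log2 ratio difference was -0.0703 to 0.4253, below 0 without picrotoxin 4. Among named genes the sign turned for Psap with library totals alone (-0.0069), with the matrix score (-0.053), without DMSO 4 (-0.0198, from -0.0198 to 0.1328 with single libraries left out) and without DMSO 3 and 5 (-0.0188), for Cd63 with the matrix score (0.002) and without DMSO 3 and 5 (0.0033), for Mcoln1 in replicates 3 to 6 alone (-0.0065), and for Atp6v0d1 without DMSO 1 (0.0645), picrotoxin 2 (0.0017) or picrotoxin 6 (0.0213; from -0.1507 to 0.0645 with single libraries left out). The other 630 refits of named genes kept their sign. At 100 cells a library, Manba, Mcoln1, Smpd1 and Atp6v0d2 were limited by counts of a few molecules.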

Other observations

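The element TCACGTG was also counted in the promoters of the related lists. It lay in 6 of 19 promoters of the delivery and fusion genes (31.6%), in 6 of 22 of the MiT/TFE and mTORC1 genes (27.3%), in 4 of 21 of the other membrane proteins and transporters, in 3 of 16 of the other hydrolases and activators (18.8%), and in 1 of 10 of the other V-ATPase subunits and assembly factors, where it lay in 7.76% of the promoters of all genes tested. These lists share genes with no member, and the shares were not tested against each other.

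Among the V-ATPase subunits with several isoforms, those known from kidney, testis or brain were at or near 0 in these macrophages. Atp6v0a4, Atp6v0e2, Atp6v1c2, Atp6v1e2 and Atp6v1g3 had 0 molecules in all 12 libraries, and Atp6v1b1 had 1 molecule in the whole series. A count of 0 in a library taken alone allows up to 3 molecules there, and 12 such counts together allow less per library. Atp6v1g2 had 1 molecule in DMSO and 2 in picrotoxin libraries. Tcirg1, the a3 isoform found on lysosomes, had 194 molecules in DMSO and 161 in picrotoxin libraries (log2 fold change -0.08), and Atp6v0a2 had 56 and 75 (0.62), and neither had an unadjusted p under 0.05.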
